A study of Mus musculus with 6 samples.

Results

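The enzymes that break down amino acids were followed in whole kidneys of mice 8 weeks old. The group holds 47 genes, taken by symbol from a table of 23873 genes, and covers the branched-chain, propionate, glycine, serine, choline, aromatic, proline and urea-related steps, with creatine synthesis, transsulfuration and lysine breakdown. All 47 symbols were found, each in 1 row. RNA sequencing compared 3 wild-type libraries with 3 libraries of the genotype R26NICD2/+pax8cre, here NICD2_Pax8. That genotype joins an allele at the Rosa26 locus, named for the intracellular domain of the receptor Notch2, to a Pax8 driver, and the series asks how active Notch2 bears on kidney cysts. Pax8 is expressed along the tubule epithelium, so other cells of the organ are not the intended target. In the title of the series the driver is Pax-rtTA, in the genotype labels Pax8-Cre, and the sources used here do not decide between them. Each wild-type title starts with NICD, so these mice may carry the allele without the driver. The labels do not tie the libraries to separate animals, so the p-values reflect spread among these 6 samples, possibly technical.

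Amino acid breakdown removes the amino group, and then burns or reuses the carbon skeleton, mostly inside mitochondria. The proximal tubule of the kidney is a main site of this work outside the liver: it takes up filtered amino acids, makes arginine from citrulline for the rest of the body, makes the creatine precursor guanidinoacetate, and releases ammonia from glutamine and glutamate. Glycine, serine and choline breakdown feed carbon units into folate, and transsulfuration turns homocysteine into cysteine.

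Expression was given as FPKM, fragments scaled by transcript length and by library total, so levels of different genes can be set side by side. Steps between low values put the depth at about 14500000 to 17800000 fragments per library. A row named NOTCH2, which has no position, stood at 1.27 to 3.75 FPKM in wild type and at 500.5 to 570.4 FPKM in NICD2_Pax8, and the row of the mouse gene Notch2 at 4.19 to 5.55 against 12.2 to 13.4 FPKM. Of 17 markers of the proximal tubule 16 fell and 0 rose, and their summed level went from 61756 to 94375 FPKM in wild type to 613 to 5477 FPKM in NICD2_Pax8, with no marker at 0 in all libraries of a group. Without Kap, the most abundant of them, the sums were 6289 to 9719.9 against 554 to 1285 FPKM. Markers of other parts of the kidney fell too: 6 of 7 of the thick ascending limb, 5 of 5 of the distal and connecting tubule, 6 of 8 of the collecting duct, 4 of 5 of podocytes and 5 of 6 of endothelium. These falls were not uniform. Scnn1g of the collecting duct rose 3.01-fold and Synpo of podocytes 2.9-fold. Umod, the most abundant thick limb marker, did not pass (mean 1118 against 1346 FPKM). The thick limb sums overlapped, at 1195 to 2411 FPKM in wild type and 1058 to 1730 FPKM in NICD2_Pax8. Of 9 fibroblast and smooth muscle markers 5 rose and 2 fell, with sums of 214 to 375 against 553 to 630.3 FPKM. By the same test, described below, 45.1% of all tested genes rose and 16.2% fell, so the counts of these 9 lie near the shares of all genes. Of 10 macrophage markers 8 rose and 0 fell, with sums of 122 to 345 against 568 to 662 FPKM. The part of these changes in the enzyme levels was not tested, and in whole kidney fewer cells of a type and less RNA per cell cannot be told apart. Wild-type replicate 1 stands apart: 6 markers of the adrenal cortex summed to 4625 FPKM there and to 2.17 to 3.33 FPKM in the other 5 libraries, and 5 fat markers to 2520 FPKM against 48.2 to 613 FPKM. Liver expresses most of these enzymes too. Of 8 liver markers 4 fell, 0 rose and 3 were too low to test, with sums of 949 to 1332 FPKM against 31.9 to 176 FPKM. Most of the wild-type sums was 1 gene, Cyp2e1, at 840.2, 771 and 1043 FPKM, against 10.5, 103 and 44 FPKM in NICD2_Pax8. The liver marker Alb, the plasma protein albumin, stood at only 1.76 to 2.72 FPKM in wild type and at 0 to 0.06 FPKM in NICD2_Pax8. Alb is counted among the 4 that fell, but it was tested only because its wild-type libraries reached 1 FPKM. Cps1, the first enzyme of the urea cycle, stood at most at 0.01 FPKM. The Y-linked gene Ddx3y was read in all 6 libraries, at 6.72 to 16.2 FPKM.

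Most of the enzymes were lower in the NICD2_Pax8 kidneys. Of the 47, 37 fell, 5 rose, 4 did not pass the test and 1, Bcat1, was too low to be tested. The test was limma on log2(FPKM + 1) over the 13500 genes that reached 1 FPKM in 3 or more libraries, with an adjusted p under 0.05 called. Over all tested genes 16.2% fell and 45.1% rose. The 5 that rose were Cbs, Arg2, Oat, Shmt1 and Gcsh. Bhmt, counted among the 37, passed the filter only through its wild-type libraries, so no test is given for it below. Among the 45 enzymes with a mean of at least 10 FPKM over all 6 libraries 36 fell and 5 rose, where 19.0% and 46.7% of all 7135 such genes did. The median log2 fold change was -1.23 for the tested enzymes and 0.32 for all tested genes. Median-of-ratios scaling, which centres the libraries on their common genes, moved the second median to 0.02 and the first to -1.52. After it 40 enzymes fell and 4 rose, where 25.7% of all tested genes fell and 28.7% rose. Every NICD2_Pax8 library was below every wild-type one for 37 enzymes, and above for 5, against 18.8% and 49.9% of tested genes. By the q-values of the authors' deposited table, at q under 0.05, 41 of the 47 were lower and 5 higher, where 21.5% and 21.3% of 19439 genes were.

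**Figure D1:**
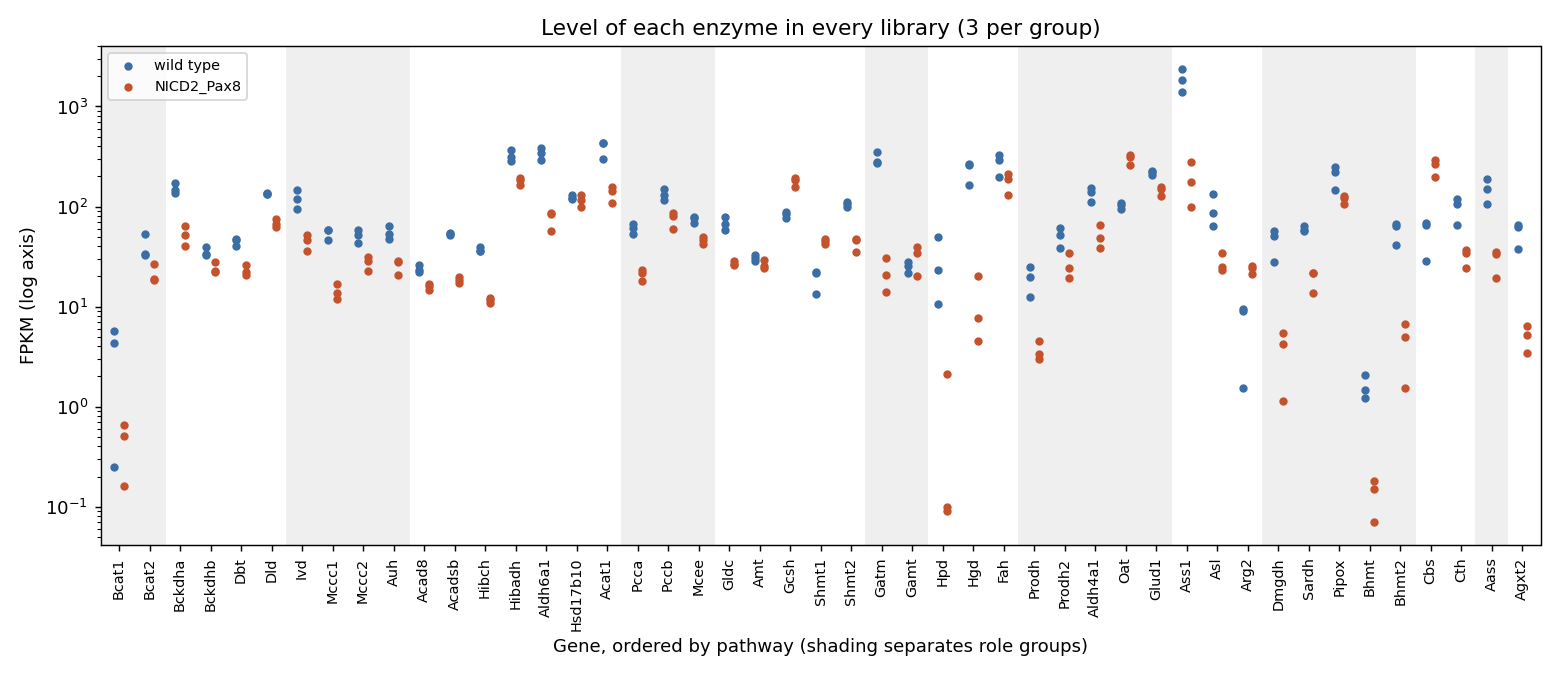
FPKM of the 47 enzymes (log axis) in the 3 wild-type libraries (blue) and the 3 NICD2_Pax8 libraries (orange), ordered by pathway, with shading to separate the role groups. Most orange points lie below the blue ones. Cbs, Arg2, Oat, Shmt1 and Gcsh lie above them.

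The wild-type kidney expressed these genes strongly. In wild type 35 of the 47 stood in the top 10 percent of all genes with values, and 18 had a mean above 100 FPKM. Ass1 alone made up 25.7% to 31.1% of their sum in wild type and 4.3% to 8.93% in NICD2_Pax8. Together the 47 took 0.953%, 1.21% and 1.32% of all FPKM in the wild-type libraries, in replicate order, and 0.442%, 0.582% and 0.562% in those of NICD2_Pax8. Without Ass1 the shares were 0.708% to 0.906% against 0.423% to 0.53%, so the groups did not overlap either way. The 37 falls ran from 1.46-fold for Bckdhb to 35.6-fold for Hpd, with a median of 2.86-fold, and 8 of them were of 10-fold or more.

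Promoter sequences are shown for 5 enzymes of the results below and for 1 stretch shared by a gene pair. RefSeq windows of 300 bases on GRCm38.p6, with 50 bases after the start, were at hand for 42 of the 47 enzymes, in 48 windows. Each run below is the 250 bases before 1 RefSeq start, 5′ to 3′ on the gene's strand, and the last is the whole gap between the starts of Bhmt2 and Dmgdh. Capitals mark a match to a searched motif.
Cbs (rose; chr17:31637206-31637455, minus strand): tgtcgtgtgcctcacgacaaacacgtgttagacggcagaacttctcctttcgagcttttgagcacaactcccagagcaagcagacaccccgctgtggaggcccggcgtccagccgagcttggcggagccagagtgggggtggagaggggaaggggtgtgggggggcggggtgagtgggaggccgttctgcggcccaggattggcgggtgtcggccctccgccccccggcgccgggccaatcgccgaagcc
Shmt1 (rose; chr11:60811266-60811515, minus strand; capitals, the letters of the RBPJ motif read on the other strand): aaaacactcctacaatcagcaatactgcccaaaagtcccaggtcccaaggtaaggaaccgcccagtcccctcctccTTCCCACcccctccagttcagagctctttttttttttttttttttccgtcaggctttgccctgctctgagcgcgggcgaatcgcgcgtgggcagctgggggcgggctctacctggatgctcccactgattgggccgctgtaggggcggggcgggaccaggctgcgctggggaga
Oat (rose; chr7:132576399-132576648, minus strand): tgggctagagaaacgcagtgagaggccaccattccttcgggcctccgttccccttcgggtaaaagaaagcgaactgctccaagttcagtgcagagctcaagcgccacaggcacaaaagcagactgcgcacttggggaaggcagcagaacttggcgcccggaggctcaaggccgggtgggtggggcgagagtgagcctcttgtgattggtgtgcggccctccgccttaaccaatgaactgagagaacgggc
Ass1 (fell; chr2:31470020-31470269, plus strand): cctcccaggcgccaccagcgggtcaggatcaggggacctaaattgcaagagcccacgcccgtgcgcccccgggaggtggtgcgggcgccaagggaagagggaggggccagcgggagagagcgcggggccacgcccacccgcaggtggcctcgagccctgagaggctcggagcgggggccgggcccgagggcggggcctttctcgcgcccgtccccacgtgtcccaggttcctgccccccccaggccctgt
Agxt2 (fell; chr15:10358283-10358532, plus strand; capitals, the HNF4A motif): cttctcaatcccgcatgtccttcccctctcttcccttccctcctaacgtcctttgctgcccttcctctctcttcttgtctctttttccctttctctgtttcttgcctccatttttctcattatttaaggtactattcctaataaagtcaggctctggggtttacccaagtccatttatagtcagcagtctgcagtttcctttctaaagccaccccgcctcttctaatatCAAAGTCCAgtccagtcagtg
Bhmt2 to Dmgdh (both fell; chr13:93674303-93674435, minus strand): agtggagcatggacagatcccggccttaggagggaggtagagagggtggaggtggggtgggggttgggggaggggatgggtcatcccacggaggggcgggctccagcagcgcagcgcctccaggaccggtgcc

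The motifs were searched on both strands. GTGGGAA, the letters bound by RBPJ, the DNA-binding partner of Notch, were in 5 of the 48 windows, those of Shmt1, which rose, of Aldh6a1, Pcca and Pipox, which fell, and of Fah, and in 6.38% of all 32851 windows. CAAAGTCCA, for the hepatocyte factor HNF4A, was in 3 windows of 2 genes, Agxt2 and Pipox, and in 0.475% of all windows. GTTAAT, a half-site of HNF1, was in the windows of Bckdhb and Prodh2 and in 7.1% of all. TGATGCAAT, bound by ATF4 with C/EBP, was in 0 windows of these enzymes and in 0.192% of all, and TGACGTCA, bound by CREB, in 0 and in 1.79%. A match is a description of letters and not a bound site. The median GC content was 58.5% in the windows of the enzymes, with a range of 37.3% to 81.0%, and 52.7% in all windows.

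The branched-chain pathway fell at nearly every step. Leucine, isoleucine and valine first lose their amino group to a transaminase, and a mitochondrial dehydrogenase complex then commits the ketoacids to breakdown. Bcat2, the mitochondrial transaminase, stood at 52.9, 32.4 and 33.5 FPKM in wild type and at 18.8, 26.7 and 18.3 FPKM in NICD2_Pax8, here and below in the order of replicates 1 to 3. Every NICD2_Pax8 library lay below every wild-type one, and the log2 fold change was -0.85 (SE 0.23, adjusted p = 0.0161). Without NICD2_Pax8 replicate 1 the adjusted p was 0.0548, and without replicate 3 it was 0.0558. Bcat1, the cytosolic form, was scarce and uneven, at 0.25, 4.37 and 5.69 FPKM in wild type and 0.16, 0.66 and 0.51 FPKM in NICD2_Pax8. Its groups overlap through wild-type replicate 1, the library with adrenal transcripts, whose part was not tested. The authors' deposited table gives it a log2 fold change of -2.76 (q = 0.0137), and with no filter on low values limma gave -1.32 (adjusted p = 0.149).

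All 4 subunits of the dehydrogenase complex fell. Bckdha, the alpha subunit of the decarboxylase (gene 12039, chromosome 7, 25629852 to 25658782 on GRCm38, as for all positions), read 135, 146 and 173 FPKM in wild type and 40.6, 64.3 and 52.0 FPKM in NICD2_Pax8. Its groups lie far apart, -1.53 on the log2 scale (SE 0.18, adjusted p = 5.71e-04). Dld, the lipoamide dehydrogenase that this complex shares with pyruvate dehydrogenase and glycine cleavage, was even within each group, at 133, 138 and 133 against 74.9, 62.5 and 67.6 FPKM (log2 fold change -0.97, SE 0.10, adjusted p = 3.19e-04). Bckdhb and Dbt, the beta subunit and the acyltransferase core, fell 1.46-fold and 1.95-fold in mean FPKM. Of the enzymes that set the activity of the complex, Ppm1k, the phosphatase that switches it on, fell from 5.28 ± 1.07 to 2.67 ± 0.459 FPKM (SD of n = 3 per group; adjusted p = 0.00681). Bckdk, the kinase that switches it off, stood at 27.1 ± 0.875 and 32.9 ± 4.55 FPKM (SD of n = 3 per group; adjusted p = 0.0991).

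Downstream, the leucine branch fell in all 4 of its members. Mccc1, the biotin-carrying subunit of methylcrotonyl-CoA carboxylase, went from 46.3, 58.0 and 58.6 FPKM to 11.8, 16.8 and 13.7 FPKM (log2 fold change -1.88, SE 0.16, adjusted p = 1.55e-04). Mccc2, the other subunit of the same enzyme, was at 51.2 ± 8 against 27.6 ± 4.39 FPKM (SD of n = 3 per group; adjusted p = 0.00362), so the partners fell 3.85-fold and 1.85-fold. Their FPKM were nearly equal in wild type and unequal in NICD2_Pax8, a difference in the size of the fall that was not tested. Ivd, which oxidizes isovaleryl-CoA, fell 2.68-fold, and Auh, the hydratase that follows the carboxylase, 2.14-fold.

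In the valine and isoleucine branch 6 of 7 fell. Hibch, which frees hydroxyisobutyrate from CoA in valine breakdown, had the smallest p of the branch, at 39.2, 35.8 and 35.9 against 11.5, 12.2 and 10.9 FPKM (log2 fold change -1.60, SE 0.09, adjusted p = 5.64e-05). The spread within each group was small beside this gap. Acat1, the thiolase of isoleucine breakdown and of ketone bodies, read 302, 432 and 429 FPKM in wild type and 109.7, 143 and 158 FPKM in NICD2_Pax8 (log2 fold change -1.49, SE 0.20, adjusted p = 8.30e-04). Aldh6a1, the semialdehyde dehydrogenase at the end of valine breakdown, fell 4.52-fold, Acadsb 2.87-fold, Hibadh 1.79-fold and Acad8 1.49-fold. The exception was Hsd17b10, an isoleucine dehydrogenase that is also a subunit of the mitochondrial enzyme that trims transfer RNA. It read 121, 118 and 131 FPKM in wild type and 99.2, 131 and 115 FPKM in NICD2_Pax8, with overlapping groups (log2 fold change -0.10, SE 0.13, adjusted p = 0.504). After median-of-ratios scaling it was called lower, at -0.45 (adjusted p = 0.0423).

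Valine, isoleucine and several other amino acids are broken down through propionyl-CoA, and the 3 enzymes that process it fell. Pcca, the biotin-carrying subunit of propionyl-CoA carboxylase, went from 53.0, 60.7 and 66.3 FPKM to 17.9, 23.4 and 21.5 FPKM (log2 fold change -1.48, SE 0.14, adjusted p = 2.08e-04). Pccb, its partner, went from 131 ± 16.4 to 74.8 ± 14 FPKM (SD of n = 3 per group; adjusted p = 0.00546). As with the leucine carboxylase, the biotin-carrying subunit had the larger fall, 2.86-fold against 1.75-fold, and this difference was not tested. Mcee, the epimerase of the next step, fell 1.62-fold.

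**Figure D2:**
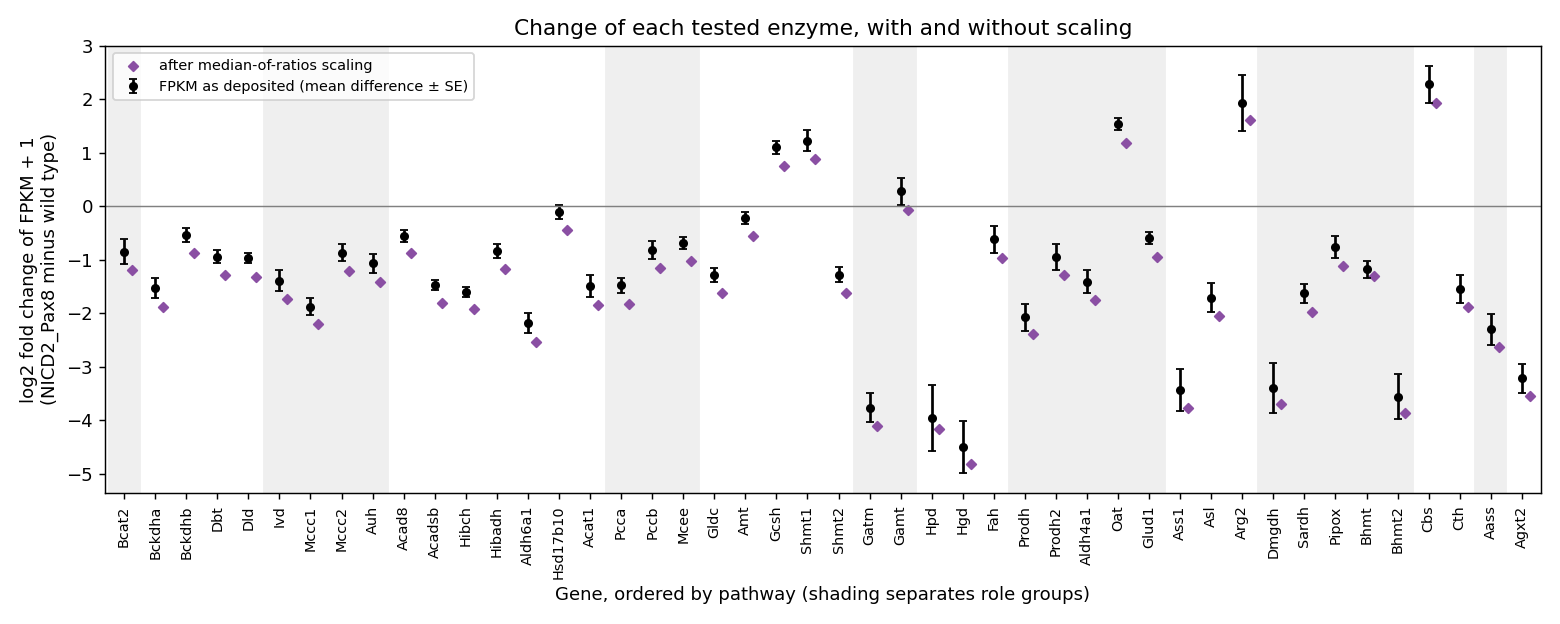
Difference in log2(FPKM + 1) between NICD2_Pax8 and wild type for the 46 tested enzymes, as deposited (black, bars are the SE of limma) and after median-of-ratios scaling (purple), ordered by pathway. Hgd is the lowest at -4.50 and Cbs the highest at 2.28, and scaling lowers each value; it takes Gamt from 0.28 to -0.06.

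Glycine and serine enzymes split. The glycine cleavage system joins 4 proteins: a decarboxylase (Gldc), a lipoyl carrier (Gcsh), an aminomethyltransferase (Amt) and Dld. Gldc read 66.7, 79.4 and 58.1 FPKM in wild type and 28.7, 26.1 and 26.9 FPKM in NICD2_Pax8, which is -1.28 on the log2 scale (SE 0.13, adjusted p = 3.02e-04). Gcsh (gene 68133, chromosome 8, 116981967 to 116993498) went the other way, from 83.7, 87.2 and 76.3 FPKM to 155, 186 and 195 FPKM (log2 fold change 1.10, SE 0.12, adjusted p = 4.06e-04). Amt, at 30.5, 28.4 and 33.1 against 24.2, 29.0 and 25.5 FPKM, overlapped between the groups and did not pass (log2 fold change -0.22, SE 0.11, adjusted p = 0.124), but was called lower after scaling (-0.56, adjusted p = 0.0115). The ratio of Gcsh to Gldc in FPKM was 1.1 to 1.31 in wild type and 5.39 to 7.27 in NICD2_Pax8. Within 1 enzyme system the carrier was up and the decarboxylase down in every NICD2_Pax8 library.

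Serine hydroxymethyltransferase, which moves a carbon unit from serine to folate, has a cytosolic and a mitochondrial form. Shmt1, the cytosolic form (gene 20425, chromosome 11, 60788897 to 60811265), read 13.4, 22.2 and 21.5 FPKM in wild type and 42.1, 45.4 and 47.3 FPKM in NICD2_Pax8 (log2 fold change 1.23, SE 0.19, adjusted p = 0.00169). Shmt2, the mitochondrial form (gene 108037, chromosome 10, 127517123 to 127522444), read 97.8, 107 and 111 FPKM against 35.1, 46.3 and 47.7 FPKM (log2 fold change -1.28, SE 0.14, adjusted p = 3.81e-04). The 2 forms stood at about equal levels in NICD2_Pax8: the ratio of Shmt1 to Shmt2 was 0.137 to 0.208 in wild type and 0.982 to 1.2 in NICD2_Pax8. On the log2(FPKM + 1) scale the ratio differed by 2.51 between the groups (exact permutation p = 0.10, the smallest that 3 against 3 allows; adjusted over 4 enzyme pairs, 0.13).

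In creatine synthesis the first enzyme fell and the second did not pass. Gatm, which joins arginine and glycine to guanidinoacetate in kidney mitochondria (gene 67092, chromosome 2, 122594473 to 122611277), went from 269.9, 353 and 276 FPKM to 13.9, 30.9 and 20.9 FPKM. Its 13.7-fold fall left every NICD2_Pax8 library far below wild type (log2 fold change -3.77, SE 0.27, adjusted p = 9.81e-05). Gamt, which methylates guanidinoacetate to creatine, read 27.6, 21.8 and 25.5 FPKM against 20.2, 39.8 and 34.6 FPKM, with overlapping groups (adjusted p = 0.359). Its direction turned with the scaling, from 0.28 as deposited to -0.06 after median-of-ratios scaling, and without NICD2_Pax8 replicate 1 it was called higher (0.56, adjusted p = 0.0168).

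In tyrosine breakdown Hpd and Hgd fell, and Fah did not pass. Of the separate list of other genes, Gstz1, of the step between Hgd and Fah, fell 2.52-fold (adjusted p = 5.47e-04). Tat, of the first step, was too low to test. Hpd makes homogentisate and Hgd opens its ring. Hgd (gene 15233, chromosome 16, 37579742 to 37632026) read 165, 260.4 and 269 FPKM in wild type and 4.51, 20.4 and 7.64 FPKM in NICD2_Pax8 (log2 fold change -4.50, SE 0.48, adjusted p = 3.78e-04). NICD2_Pax8 replicate 2 held the most, and the 21.4-fold fall was 38.1-fold without it. Hpd, at 10.7, 23.0 and 49.4 against 0.1, 2.14 and 0.09 FPKM, showed the same library apart (log2 fold change -3.96, SE 0.62, adjusted p = 0.00161). Its fall of 35.6-fold moved with single libraries, to 21.7-fold without wild-type replicate 3 and to 291-fold without NICD2_Pax8 replicate 2. Fah, which splits fumarylacetoacetate in the last step, read 196, 289.7 and 325 FPKM against 129.6, 187 and 209 FPKM, and the groups overlapped (log2 fold change -0.62, SE 0.25, adjusted p = 0.0663). It was called lower after median-of-ratios scaling (-0.97, adjusted p = 0.0298) and without wild-type replicate 1 (-0.83, adjusted p = 0.0157).

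In the arginine group the 2 enzymes of synthesis fell, and Arg2 rose with a call that depended on the scaling. Ass1 joins citrulline and aspartate, and Asl splits the product to arginine. Ass1 (gene 11898, chromosome 2, 31470270 to 31520670), the most abundant of the 47, read 1381, 1859 and 2391 FPKM in wild type and 98.3, 278 and 177 FPKM in NICD2_Pax8 (log2 fold change -3.43, SE 0.39, adjusted p = 4.59e-04). Even the highest NICD2_Pax8 library lay several-fold below the lowest wild-type one. Asl fell 3.46-fold, from 94.2 ± 34.1 to 27.3 ± 6.04 FPKM (SD of n = 3 per group; adjusted p = 0.0018). Arg2, the mitochondrial arginase that makes ornithine and urea (gene 11847, chromosome 12, 79130788 to 79156301), rose from 1.54, 9.47 and 9.06 FPKM to 25.6, 21.0 and 24.4 FPKM (log2 fold change 1.93, SE 0.53, adjusted p = 0.0171). Wild-type replicate 1 was low, and without it the log2 fold change was 1.26 (adjusted p = 3.76e-04). The call on Arg2 was lost after median-of-ratios scaling (1.61, adjusted p = 0.0532) and without NICD2_Pax8 replicate 1 (1.87, adjusted p = 0.0549).

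Oat, which converts ornithine to the precursor of glutamate and proline (gene 18242, chromosome 7, 132557475 to 132576398), rose. It read 93.8, 109 and 103 FPKM in wild type and 263, 312 and 324 FPKM in NICD2_Pax8, with little spread in either group (log2 fold change 1.54, SE 0.12, adjusted p = 1.19e-04). The other 4 enzymes of proline, ornithine and glutamate fell. Aldh4a1, which oxidizes the same precursor to glutamate, went from 135 ± 21.3 to 50.8 ± 13.2 FPKM (SD of n = 3 per group; adjusted p = 0.00131), and the ratio of Oat to Aldh4a1 went from 0.674 to 0.843 in wild type to 4.81 to 6.76 in NICD2_Pax8. Glud1, which releases ammonia from glutamate, read 206, 226 and 221 FPKM against 127, 148 and 157 FPKM (log2 fold change -0.60, SE 0.11, adjusted p = 0.00376). Prodh, the first enzyme of proline breakdown, fell from 12.4, 19.9 and 25.1 FPKM to 3.02, 4.52 and 3.39 FPKM (log2 fold change -2.08, SE 0.26, adjusted p = 6.36e-04). Prodh2, its relative for hydroxyproline, fell less, from 38.3, 52.3 and 60.9 FPKM to 19.1, 34.1 and 24.4 FPKM (log2 fold change -0.95, SE 0.25, adjusted p = 0.0138). On the log2(FPKM + 1) scale the ratio of Prodh to Prodh2 was lower by -1.13 in NICD2_Pax8 (exact permutation p = 0.10, adjusted 0.13).

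**Figure D3:**
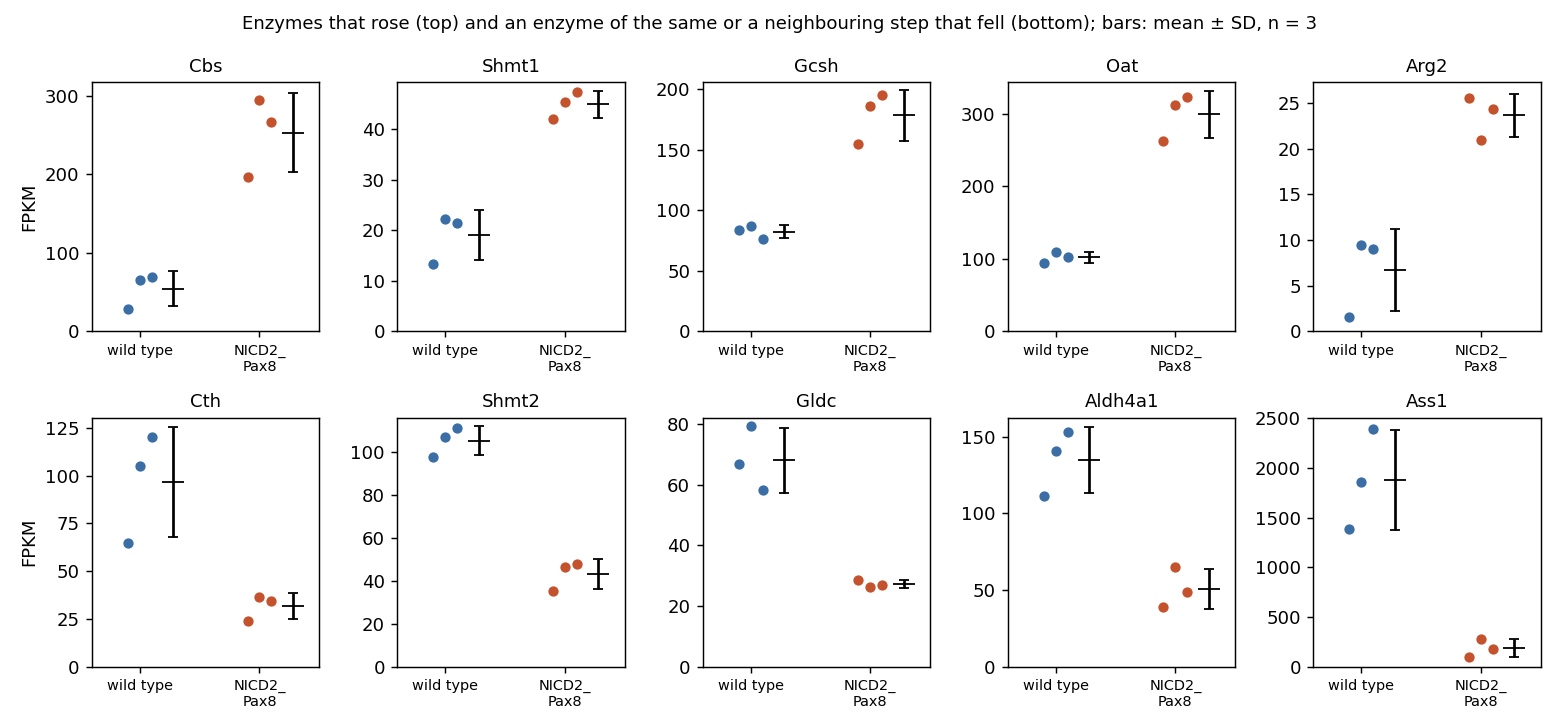
FPKM per library of the 5 enzymes that rose (top row) and of an enzyme of the same or a neighbouring step that fell (bottom row), with the mean and SD of 3 libraries; each panel has its own axis from 0. Cbs lies at 28.8 to 69 FPKM in wild type and at 197 to 295 FPKM in NICD2_Pax8, while Cth goes from 64.7 to 120.1 FPKM to 24.1 to 36.7 FPKM.

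Transsulfuration held the largest rise. Cbs condenses homocysteine with serine, and Cth cleaves the product to cysteine. Cbs (gene 12411, chromosome 17, 31612623 to 31637233) read 28.8, 65.0 and 69.0 FPKM in wild type and 197, 295 and 267 FPKM in NICD2_Pax8, a 4.67-fold rise (log2 fold change 2.28, SE 0.34, adjusted p = 0.00141). Wild-type replicate 1 was the lowest library, and the NICD2_Pax8 values all lay above wild type. Cth (gene 107869, chromosome 3, 157894248 to 157925081) read 64.7, 105 and 120.1 FPKM against 24.1, 36.7 and 34.4 FPKM (log2 fold change -1.55, SE 0.26, adjusted p = 0.00226). The ratio of Cbs to Cth was below 1 in each wild-type library, at 0.445 to 0.621, and 7.77 to 8.17 in the NICD2_Pax8 libraries, where it hardly varied.

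Choline is oxidized to betaine, Bhmt passes a methyl group of betaine to homocysteine, and Dmgdh and Sardh remove the remaining ones. All 5 enzymes of this group were counted as lower, Bhmt through a filter that it passed only in wild type. Bhmt2, which methylates homocysteine with a methyl donor derived from methionine (gene 64918, chromosome 13, 93656097 to 93674302), read 41.4, 64.4 and 67.3 FPKM in wild type and 1.52, 6.64 and 4.94 FPKM in NICD2_Pax8 (log2 fold change -3.56, SE 0.42, adjusted p = 5.16e-04). Dmgdh, the dimethylglycine dehydrogenase (gene 74129, chromosome 13, 93674436 to 93752823), read 27.6, 50.8 and 56.6 FPKM against 1.14, 5.48 and 4.24 FPKM (log2 fold change -3.40, SE 0.46, adjusted p = 8.76e-04). Bhmt, the betaine-dependent enzyme, was scarce in wild type, at 1.45, 1.22 and 2.09 FPKM. It stood at 0.07, 0.18 and 0.15 FPKM in NICD2_Pax8 (log2 fold change -1.18). Since it passed the filter only through wild type, no test is given. Bhmt, Bhmt2 and Dmgdh are neighbours within 136 kb of chromosome 13, and Bhmt2 and Dmgdh start head to head with the 133 bases printed above between them. In mean FPKM the 3 fell 11.9-fold, 13.2-fold and 12.4-fold. Folds of like size were not particular to this locus: Gatm fell 13.7-fold, Agxt2 11.1-fold and Ass1 10.2-fold, on other chromosomes. A part of the shared position was not tested. Because Bhmt lies near the pseudocount, the log2(FPKM + 1) ratio of Bhmt to Bhmt2 differed by 2.39 between the groups while the folds were alike. No test of this ratio is given either, since Bhmt passed the filter only through wild type.

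Sarcosine, the next product, is oxidized by Sardh in mitochondria and by Pipox in peroxisomes. Sardh fell from 64.1, 56.9 and 57.8 FPKM to 13.6, 21.6 and 21.6 FPKM (log2 fold change -1.63, SE 0.18, adjusted p = 4.57e-04). Pipox, the only one of the 47 that is peroxisomal, read 145, 222 and 249 FPKM against 107, 121 and 126 FPKM (log2 fold change -0.76, SE 0.21, adjusted p = 0.0166). Its call was lost without wild-type replicate 2 or 3 or without NICD2_Pax8 replicate 1, at adjusted p of 0.0577, 0.0502 and 0.0548.

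Lysine and methylarginine breakdown also fell. Aass, which starts lysine breakdown, went from 106, 149 and 187 FPKM to 19.1, 35.4 and 33.5 FPKM (log2 fold change -2.30, SE 0.29, adjusted p = 6.93e-04). Agxt2, a mitochondrial aminotransferase for dimethylarginines and beta-aminoisobutyrate (gene 268782, chromosome 15, 10358516 to 10410158), went from 37.2, 62.9 and 66.0 FPKM to 3.4, 6.4 and 5.23 FPKM (log2 fold change -3.22, SE 0.27, adjusted p = 1.64e-04). For both, the groups were wide apart and the fall was 5.01-fold and 11.1-fold.

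By compartment, 29 of 34 mitochondrial enzymes fell and 3 rose. Of 12 cytosolic ones 11 were tested, all but Bcat1, and 7 fell and 2 rose. Over all tested genes 16.2% fell and 45.1% rose. The median log2 fold change was -1.18 for the mitochondrial and -1.55 for the tested cytosolic enzymes. The cytosolic falls and median include Bhmt, which passed the filter only through wild type. Among the falls of 10-fold or more were cytosolic (Ass1, Hpd, Hgd, Bhmt, Bhmt2) and mitochondrial (Gatm, Dmgdh, Agxt2) enzymes.

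**Figure D4:**
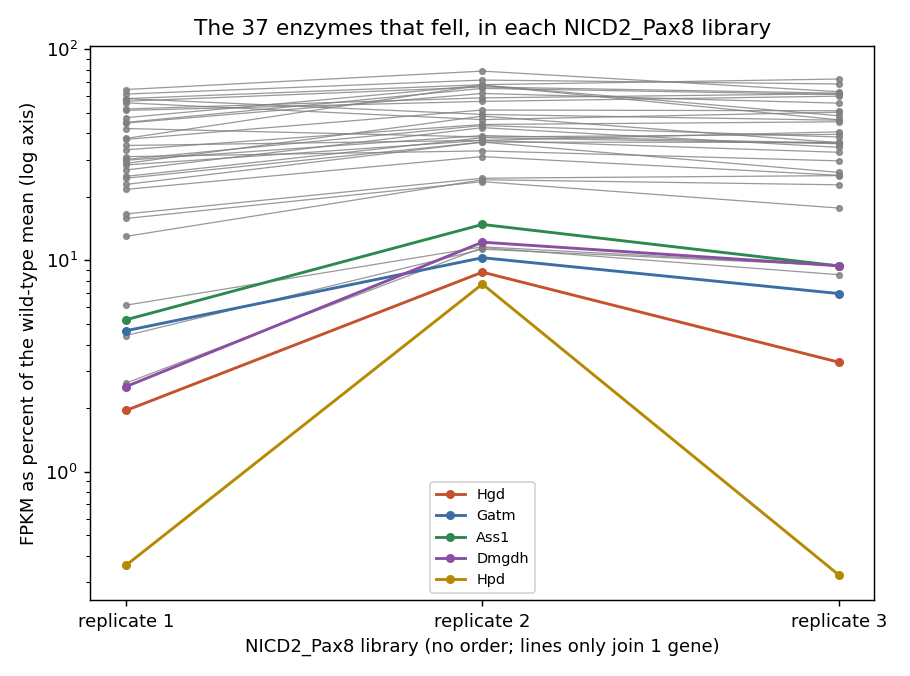
Level of each of the 37 enzymes that fell, as a percent of its wild-type mean (log axis), in the 3 NICD2_Pax8 libraries; a line joins the values of 1 gene and 5 genes are coloured. Replicate 2 is the highest library for 28 of the 37 genes and replicate 1 the lowest for 29.

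The NICD2_Pax8 libraries differed in how much they kept. Of the 37 enzymes that fell, replicate 2 was the highest of the 3 for 28, replicate 3 for 6 and replicate 1 for 3, and replicate 1 was the lowest for 29. The summed proximal tubule markers had the same order, with 613, 5477 and 1897 FPKM in replicates 1 to 3. Kap made up most of this in replicate 2, and without it the sums were 554, 1285 and 1167 FPKM. Some of these markers, Lrp2, Cubn, Slc5a12, Slc27a2 and Hnf4a, were highest in replicate 3. A low NICD2_Pax8 replicate 1 was not particular to the enzymes that fell. Of those that rose, Gcsh, Shmt1, Oat and Cbs were also lowest in it, and Arg2 was highest there. Hsd17b10, Amt, Gamt and Fah, which did not pass, were lowest in it too. In wild type, replicate 1 was the lowest library for 29 of the 37 and also for 4 of the 5 that rose. Without this library 38 fell and 5 rose. Leaving out NICD2_Pax8 replicate 2 gave 37 and 5. The 4 rises that passed both with and without median-of-ratios scaling were Cbs, Gcsh, Oat and Shmt1. With scaling and without replicate 2 together, a setting added after the values were seen, Shmt1 had an adjusted p of 0.0559 and Arg2 of 0.102.

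Other genes of amino acid metabolism, 100 on a separate list, moved in both directions. Of 85 tested 46 fell, 17 rose and 22 did not pass, against the 16.2% and 45.1% of all tested genes. After median-of-ratios scaling 53 fell and 11 rose, where 25.7% and 28.7% of all tested genes did. The rises count Arg1, Pycr1 and Mthfd1l, which passed the filter only through NICD2_Pax8, and the falls count Ido2, which passed only through wild type. Among the largest falls were those of Acmsd in tryptophan breakdown (log2 fold change -4.47, SE 0.37, adjusted p = 1.47e-04; 36.4-fold in mean FPKM, and 67.5-fold without NICD2_Pax8 replicate 2) and of Pck1, which passes glutamine carbon to glucose (2005 ± 279.6 to 107 ± 58 FPKM, SD of n = 3 per group; log2 fold change -4.38, SE 0.43, adjusted p = 2.65e-04). Aldh18a1, the first enzyme of proline synthesis from glutamate, had the largest rise on the log2(FPKM + 1) scale, from 2.26 ± 1.41 to 20.1 ± 0.541 FPKM (SD of n = 3 per group; log2 fold change 2.78, SE 0.28, adjusted p = 2.92e-04). Its ratio of mean FPKM was 8.9, and 13.8 without wild-type replicate 1. Next on that log2 scale, which understates low genes, were Mthfd2, of mitochondrial folate metabolism (log2 fold change 2.08, SE 0.19, adjusted p = 2.03e-04), and Asrgl1, an asparaginase (log2 fold change 1.99, SE 0.14, adjusted p = 9.74e-05). By list, the other branched-chain and propionate genes fell in 10 of 13 with 0 rises, and those of arginine, proline synthesis and polyamines rose in 5 of 8 with 1 fall; of these 5, Arg1 and Pycr1 passed the filter only through NICD2_Pax8.

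**Figure D5:**
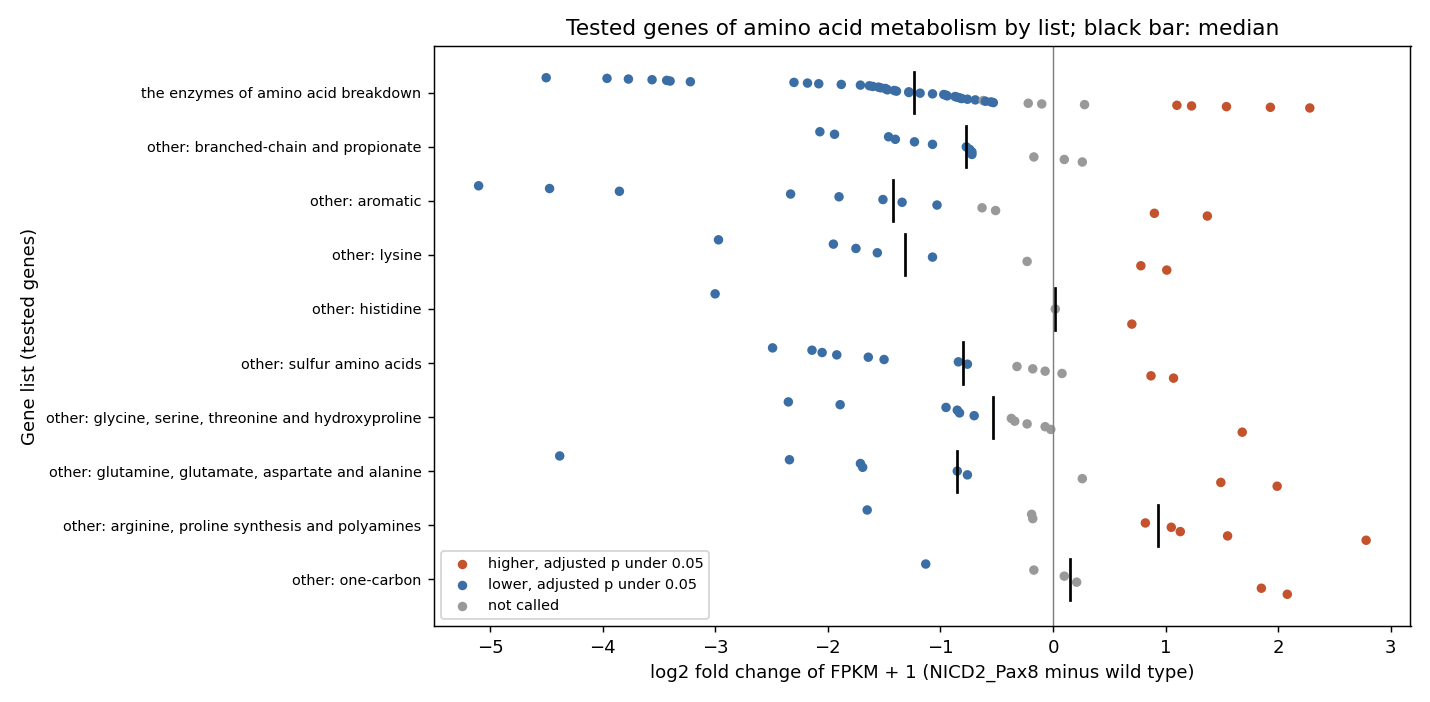
Differences in log2(FPKM + 1) between NICD2_Pax8 and wild type for the tested enzymes of amino acid breakdown and for the tested genes of 9 other lists of amino acid metabolism; orange rose, blue fell, grey did not pass, and the black bar is the median. The medians are -1.23 for the enzymes, -1.43 for the other aromatic genes and 0.94 for arginine, proline synthesis and polyamines, against 0.32 for all tested genes. These medians include genes that passed the filter through 1 group only: Bhmt and Ido2 through wild type, Arg1 and Pycr1 through NICD2_Pax8.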

How the data were processed

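RNA of frozen whole kidneys was extracted with Trizol and made into TruSeq libraries, per the labels' protocols. The deposited table gave 1 row per gene with FPKM per library and the mean FPKM of each group, made by the authors per the file headers. It also gave log2 fold changes and q-values of the group comparison by the authors, from DESeq2 per the file headers. Bowtie 0.12.2 and mm8 appear in the submitters' processing notes. Positions were read as GRCm38, since 86.6% of 17966 matched identifiers, and 44 of the 47 members, had RefSeq's start and end on that build; for the counting tool and annotation version, a name was not given in the sources used here. Of 23873 rows 4370 had no values. There were 0 further columns of single libraries.

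The 13500 genes that reached 1 FPKM in 3 or more libraries were tested with limma 3.58.1 (R 4.3.3, mean-variance trend, two-sided, genotype as the only term) on log2(FPKM + 1), with Benjamini-Hochberg adjustment over all of them; adjusted p under 0.05 was called. FPKM errors are the SD of 3 libraries, each fold divides mean FPKM, and log2 fold changes are on the log2(FPKM + 1) scale, which understates changes of low genes. Ratios of 4 enzyme pairs were compared by two-sided exact permutation tests, of which that of Bhmt to Bhmt2 is not given. Depth was estimated from the steps between low values of genes with 1 transcript, of which 72.5% to 79.1% then lay within 0.15 of a whole number, with the step chosen on the same values.

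The members and all lists were chosen with earlier results of these data known. In each role group full values are given for the most abundant member and the one of smallest p, the enzyme pairs, the members that rose and those that did not pass; other members with values, the compartments, the motifs and the ratios other than the 4 pairs were chosen after the values were seen. Some genes on the lists are not reported here by name. Alternatives were pseudocounts of 0.1 and 5, no filter, a filter of 10 FPKM, 3 scalings, a replicate block, leaving out each library, calling at 0.01, and requiring a log2 change of 1 or more in size.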

Additional observations from a re-analysis of the deposited data

How the results depend on the processing

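The count of enzymes that fell was 25 to 40 in all alternatives, 25 when a log2 change of 1 or more in size was required, and the count that rose was 3 to 5. It was 3 with median-of-ratios scaling and without NICD2_Pax8 replicate 2 together, an alternative added after the data were seen. With each library left out in turn 35 to 38 fell and 5 rose; without NICD2_Pax8 replicate 1 Gamt was among the 5 and Arg2 was not. The direction of Gamt reversed, to -0.06 with median-of-ratios scaling and -0.09 with upper quartile scaling, where it was not called. Of the other amino acid genes 11 rose with median-of-ratios scaling and 11 with upper quartile scaling, against 17. Over all tested genes 6095 rose and 2190 fell; the counts were 3873 and 3473 with median-of-ratios scaling, 3866 and 3558 with quantile normalization, 3731 and 3669 with upper quartile scaling, 3742 and 1439 with the filter of 10 FPKM, which tests fewer genes, and 2427 and 1009 with the minimum fold change. The cause of the other moves was not tested. The difference in the log2 ratio of Prodh to Prodh2 was -1.35 with a pseudocount of 0.1 and -0.60 with 5, and that of Bhmt to Bhmt2 was 1.04 with 0.1, since Bhmt lies below or near the pseudocount. The ratio of Bcat1 to Bcat2 differed by -0.47 (exact permutation p = 0.80), by 0.18 with a pseudocount of 5 and by -1.44 to 0.09 with a library left out. Same-numbered libraries share only a number: their deviations from the group means correlated at 0.10, -0.05 and 0.01, and not every library correlated best with its own number. With the replicate block 38 enzymes fell and 5 rose, 47 and 17 of the other amino acid genes, and 2164 and 5818 of all genes.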

Other observations

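Genes that make serine, proline and one-carbon units were set beside the enzymes that use them, as values chosen after they were seen. Phgdh, the first enzyme of serine synthesis, rose from 12.3 ± 4.4 to 39.9 ± 2.8 FPKM (SD of n = 3 per group; log2 fold change 1.68, SE 0.24, adjusted p = 0.0011), while Psph, the last, fell from 10.9 ± 1.5 to 6.39 ± 1.49 FPKM (SD of n = 3 per group; adjusted p = 0.0143) and Psat1, between them, stood at 34.5 ± 9.01 and 33.3 ± 1.7 FPKM (SD of n = 3 per group; adjusted p = 0.929). In proline synthesis Pycr1 stood at 0.44, 0.22 and 0.17 FPKM in wild type and 1.33, 1.98 and 1.63 FPKM in NICD2_Pax8. Mthfd1l, of mitochondrial folate metabolism, stood at 0.86, 0.83 and 0.61 against 5.35, 4.68 and 6.12 FPKM. Both genes passed the filter only through NICD2_Pax8, so no test is given. Aldh1l1, which oxidizes formyl-folate in the cytosol, fell 2.21-fold (adjusted p = 0.00336).

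The tryptophan pathway held both directions. Haao fell 13.4-fold (20.2-fold without NICD2_Pax8 replicate 2), Kmo 3.99-fold and Afmid 2.85-fold, while Kynu rose from 4.7 ± 1.6 to 13.5 ± 2.32 FPKM (SD of n = 3 per group; adjusted p = 0.00203) and Qprt 1.87-fold (adjusted p = 0.0294, and 0.198 after median-of-ratios scaling). Arg1, the cytosolic arginase of liver and of macrophages, stood at 0.1, 0.05 and 0.05 FPKM in wild type and 3.78, 1.27 and 1.83 FPKM in NICD2_Pax8, below Arg2 in each library. It too passed the filter only through NICD2_Pax8, and no test is given. The macrophage markers rose in the same libraries, and their part was not tested.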
